A study of Homo sapiens with 4 samples.

Results

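The ATP-binding cassette (ABC) transporter genes were examined in U87 cells, a human glioma cell line, with and without knockdown of PTPRN. Members were the rows of the deposited expression table whose gene symbol was ABC followed by a letter from A to G and a number. There were 45 such genes among the 19314 genes listed, and 42 of them had a value above 0 in at least 1 library. The other 3, ABCC8, ABCG5 and ABCG8, were listed without a value. Subfamily A had 12 members, subfamily B 9, subfamily C 11, subfamily D 4, subfamily E 1, subfamily F 3 and subfamily G 5.

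Total RNA was sequenced in 4 libraries. The knockdown group held 2 libraries of U87 cells (U87_PTP2) with a short hairpin RNA against PTPRN, and the control group held 2 libraries of the same line (SCR), read here as a hairpin with a scrambled sequence. The comparison asked how gene expression changed when PTPRN was reduced. PTPRN belongs to the receptor-type protein tyrosine phosphatases and is known from secretory granules. The study describes its phosphatase domain as inactive. A single hairpin was represented, so an effect of that hairpin on other genes and an effect of PTPRN cannot be told apart. The libraries are labelled U87, while their growth protocol is written for hCMEC/D3, which is a line of brain endothelial cells. The labels do not say that the libraries came from separate cultures, so the p-values measure only the spread between these libraries, which may be technical.

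ABC transporters couple the binding and splitting of ATP to the movement of a substrate across a membrane. A full transporter carries a pair of membrane domains and a pair of nucleotide-binding domains in 1 chain, while other members carry one of each and work as dimers. Subfamily A moves lipids, subfamily B holds the multidrug transporter P-glycoprotein together with dimeric transporters of mitochondria and lysosomes, and subfamily C holds the multidrug resistance-associated proteins (MRPs) and the sulfonylurea receptors. Subfamily D serves peroxisomes and lysosomes, and subfamily G moves sterols and drugs. Subfamilies E and F have nucleotide-binding domains but no membrane domain, and their proteins act on ribosomes and translation. In the brain and in glioma the efflux pumps ABCB1, ABCC1 and ABCG2 are known for removing drugs from cells.

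PTPRN itself stood at 12.09 and 11.68 FPKM, the number of fragments scaled to transcript length and to the mapped reads of the library, in the knockdown libraries and at 84.84 and 85.02 FPKM in the SCR libraries. Its fold change was -2.74 on the log2(FPKM + 1) scale (SE 0.03, adjusted p = 0.000148 by limma), so the targeted gene went with the labels. The depth was estimated at 18200000 to 19800000 reads per library, and the correlation across genes was at least 0.999 within groups and at most 0.962 between them. Among glioma and astrocyte markers, VIM and CD44 were high, at 151.56 FPKM or more in each library, and GFAP, S100B and SOX2 at most 0.55 FPKM. VIM, CD44 and FABP7 rose with log2 fold changes of 1.25, 1.05 and 0.81, and NES and GFAP fell with -1.78 and -0.37. The brain endothelial markers CDH5 and CLDN5 were at most 0.03 FPKM in each library, 8 of the 9 endothelial markers had a value, and their sum was 15.0 to 15.6 FPKM in the knockdown against 65.4 to 69.8 FPKM in SCR, mostly from the glucose transporter gene SLC2A1. PECAM1 and VWF were lower (log2 fold changes -0.62 and -0.89), while KDR and TEK were higher (0.47 and 0.41). The part of these marker differences in the results was not tested. In bulk libraries, fewer cells of a type and less RNA per cell cannot be told apart.

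Most ABC transporter genes with appreciable expression differed between the groups, with members moving in both directions. Of the 42 members tested, 13 were higher and 14 were lower with PTPRN knockdown when adjusted p-values up to 0.05 were accepted, and 15 did not pass. This share of 64.3% stood beside 57.9% of all 16595 genes tested, of which 30.8% were higher and 27.1% were lower. Both groups did not overlap in 30 members, 14 higher and 16 lower, beside 75.6% of all genes. The median log2 fold change was 0.00 over the members and 0.01 over all genes tested.

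ABCC3 was the 1 member, or 2.38%, that met the study's stricter thresholds on the log2(FPKM + 1) scale, beside 6.69% of all genes. These thresholds are a fold change of 2 or more and an adjusted p no higher than 0.001. By the plain ratio of mean FPKM, further members with such an adjusted p reached 2-fold. Among them were ABCA7 and ABCC10, with SCR at 3.49 and 2.14 times knockdown, and ABCA13, with knockdown at 2.31 times SCR. ABCC3 encodes MRP3, an exporter of organic anions, bile acids and glucuronides. It stood at 2.57 and 2.21 FPKM with knockdown and at 14.42 and 14.49 FPKM in SCR. The SCR mean was 6.05 times the knockdown mean, and the log2 fold change was -2.19 (SE 0.06, adjusted p = 0.000331). ABCC6 lay just outside these thresholds with a log2 fold change of -1.15 and an adjusted p of 0.00104. When any one of the 4 libraries was left out, no member and no other gene passed the stricter thresholds by limma, although 8700 to 8790 genes had an unadjusted p under 0.05, and ABCC3 kept an adjusted p of at most 0.0256.

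Most members that passed were those expressed at a higher level. The 25 members with a mean of at least 1 FPKM over the libraries held 10 that were higher, 14 that were lower and 1, ABCB10, that did not pass. Among all genes at that level 74.6% passed 0.05 and 9.57% passed the stricter thresholds. The median log2 fold change of these 25 members was -0.28, beside 0.06 over all genes at that level. The other 17 members ranged from 0.00 to 0.75 FPKM, and among them ABCA3, ABCA4 and ABCA5 were higher and 14 did not pass. The standard errors of the 25 members were 0.03 to 0.07 on the log2 scale, so small differences were resolved in these genes only as far as 2 libraries per group allow. Of the 27 members that passed, 14 passed under each setting in which they were tested, and the other 13 missed 0.05 under at least 1 of them.

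**Figure D1:**
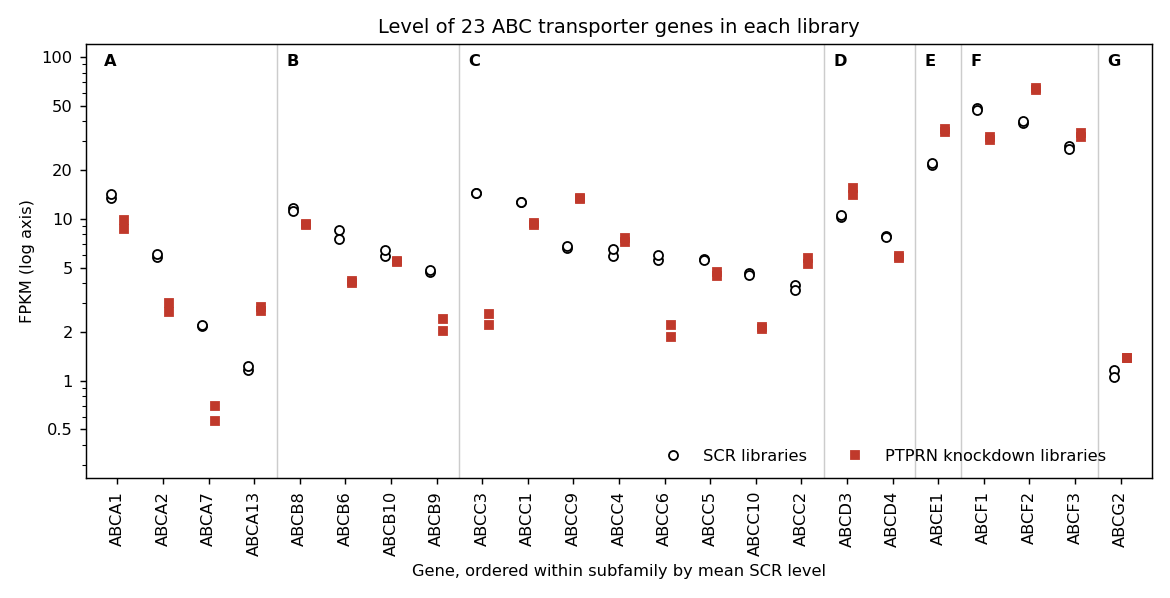
Level of 23 ABC transporter genes with a mean of at least 1 FPKM, on a log axis, ordered within subfamilies A to G by the SCR mean. Open circles are the 2 SCR libraries and red squares the 2 PTPRN knockdown libraries. The replicates lie close together, the 2 groups are apart in each gene, and ABCC3 shows the widest gap. Of all 11272 genes at that level, the groups were likewise apart in 10058.

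**Figure D2:**
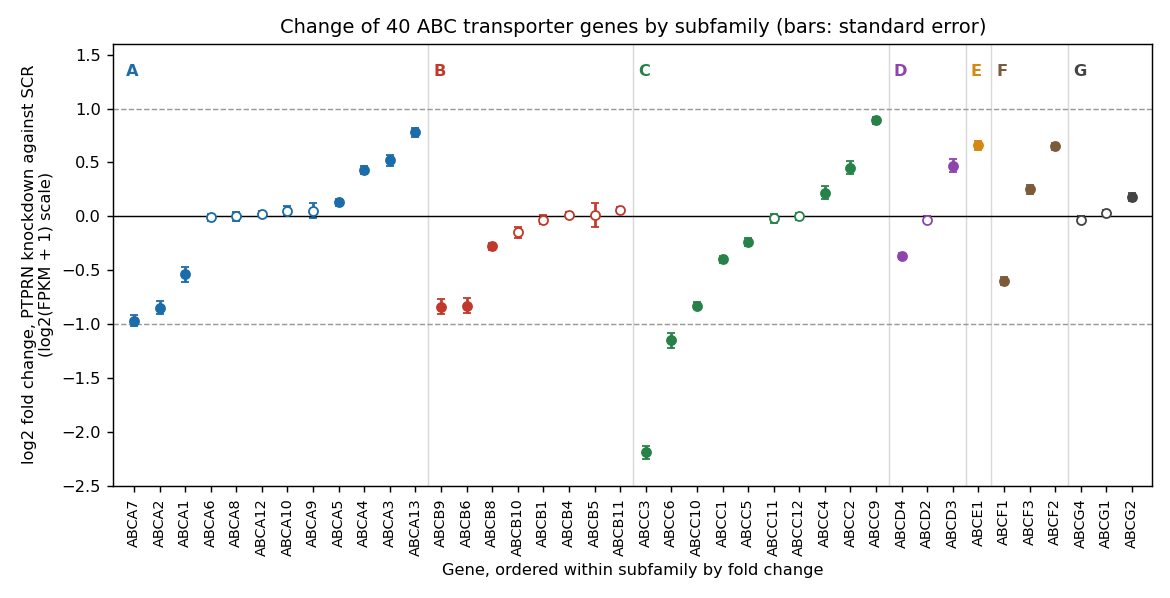
Log2 fold change of 40 tested members, PTPRN knockdown against SCR on the log2(FPKM + 1) scale, ordered within each subfamily, with standard errors as bars. Filled points passed an adjusted p of 0.05 and open points did not, and dashed lines mark a fold change of 2. Filled points of subfamilies A, C, D and F lie on both sides of 0.

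Summed over its members in FPKM as deposited, the family kept a nearly equal level, but its composition shifted. The sums were not rescaled between libraries. Size factors by median ratio were 1.025 and 1.03 in the knockdown libraries and 0.9731 and 0.9754 in the SCR libraries. Division by them would lower the knockdown sums and raise the SCR sums, while shares within a library would stay the same. The 42 members together came to 283 ± 3.2 FPKM with knockdown and to 287 ± 0.629 FPKM in SCR (SD, n = 2). The 38 membrane transporters of subfamilies A, B, C, D and G summed to 121 ± 1.29 FPKM with knockdown against 150 ± 1.33 FPKM in SCR, a ratio of 0.806. A large part of this fall was that of ABCC3, with a mean of 2.39 FPKM with knockdown and 14.5 FPKM in SCR. The 4 genes of subfamilies E and F summed to 162 ± 1.9 FPKM against 137 ± 0.7 FPKM, a ratio of 1.19. The share of the membrane transporters in the family was 42.8 and 42.7% in the knockdown libraries and 52.1 and 52.6% in the SCR libraries. With 2 libraries per group, an exact permutation test of such a sum cannot give a p below 0.333, so no test was made of it.

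By subfamily, the sums of A, B and C were lower with knockdown, at 17.4 ± 1.37 against 24.1 ± 0.877 FPKM, 31.8 ± 1.1 against 39.6 ± 0.46 FPKM and 46.7 ± 0.141 against 59.7 ± 0.467 FPKM (SD, n = 2). Most of the fall in C was that of ABCC3, whose mean was 2.39 FPKM with knockdown and 14.5 FPKM in SCR. The sum of D was 23.9 ± 1.04 against 25.7 ± 0.544 FPKM, and that of G was 1.42 ± 0.00707 against 1.14 ± 0.099 FPKM. The sum of E was 35.0 ± 0.94 against 21.8 ± 0.396 FPKM, and that of F was 127 ± 0.962 against 115 ± 1.1 FPKM. In each of the 7 subfamilies the libraries of both groups did not overlap in the sum. The same held for 75.6% of all single genes tested, and for 10058 of the 11272 with a mean of at least 1 FPKM. It is thus no trait of the subfamilies.

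**Figure D3:**
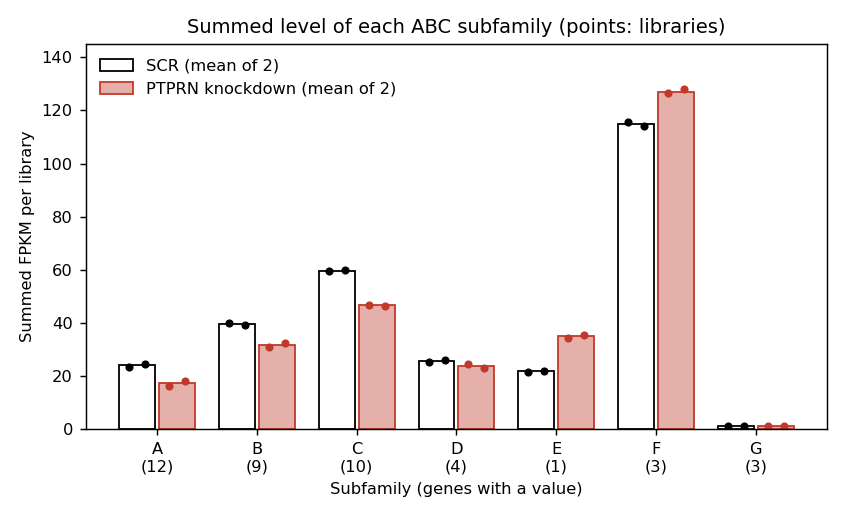
Summed FPKM of each ABC subfamily, with the number of genes with a value in brackets. Bars are the means of the 2 SCR libraries (white) and the 2 PTPRN knockdown libraries (red), and points are single libraries. Subfamilies A, B and C sum to less with knockdown and subfamilies E and F to more.

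In subfamily A, the lipid transporters, 4 members were higher, 3 were lower and 5 did not pass. The 58.3% that passed is near the 57.9% of all genes tested. The 3 lower genes held most of the subfamily's expression. ABCA1, which loads cholesterol and phospholipid onto apolipoproteins at the cell surface, was at 8.68 and 9.81 FPKM with knockdown and at 13.45 and 14.21 FPKM in SCR. Its log2 fold change was -0.54 (SE 0.07, adjusted p = 0.00584). Both knockdown libraries lay below both SCR libraries, and the adjusted p was 0.0861 without SCR 1 and 0.1 without SCR 2.

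ABCA2, an endolysosomal lipid transporter known from brain and myelin, was at 2.67 and 3.03 FPKM against 5.84 and 6.06 FPKM in SCR (log2 fold change -0.85, SE 0.06, adjusted p = 0.00122). ABCA7, a phospholipid transporter whose gene is a risk locus for Alzheimer disease, was at 0.56 and 0.70 FPKM against 2.19 and 2.21 FPKM (log2 fold change -0.97, SE 0.05, adjusted p = 0.000759). The groups did not overlap in either gene. ABCA13, which encodes one of the longest proteins of the family, moved the other way. It was at 2.71 and 2.84 FPKM against 1.16 and 1.24 FPKM in SCR (log2 fold change 0.78, SE 0.04, adjusted p = 0.000636).

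ABCA3 and ABCA4 rose from near the detection limit. ABCA3, the surfactant lipid transporter of lung lamellar bodies, which has 1 pseudogene copy, was at 0.43 and 0.56 FPKM with knockdown and at 0.04 and 0.05 FPKM in SCR, where the estimated depth gives about 5 and 6 reads. ABCA4, the retinal transporter of photoreceptors, was at 0.35 and 0.39 FPKM against 0.00 and 0.04 FPKM. Their adjusted p-values were 0.00323 and 0.00217. Both are known for specialised cells of other tissues, and they stayed under 1 FPKM in each library. ABCA5, at 0.56 and 0.52 FPKM against 0.41 and 0.41 FPKM (log2 fold change 0.13, adjusted p = 0.0322), lies in a run of 5 ABCA genes on chromosome 17 from 68867287 to 69327182 (GRCh38). The others of the run, ABCA6, ABCA8, ABCA9 and ABCA10, did not pass, and the 5 genes together ranged from 0.00 to 0.56 FPKM. ABCA5 and ABCA10 overlap by 381 bases on the same strand. Without any one library the adjusted p of ABCA5 was 0.0513 to 0.109, and without SCR 1 or SCR 2 that of ABCA3 was 0.0758 or 0.0724.

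Promoters are shown for 5 members, chosen after their values were seen. These were ABCA7 and ABCC6, which fell, ABCA13 and ABCC9, which rose, and ABCA1, whose promoter is known for a liver X receptor element. Each is the 250 bases before the RefSeq start (GRCh38.p14), written 5′ to 3′ on the gene's strand. Capitals mark each GC box (GGGCGG on either strand), the motif of Sp1-type factors. In ABCA1 they also mark the letters TGACC and ACCT with 7 bases between them. These letters are parts of a direct repeat of the kind that liver X receptor and retinoid X receptor dimers bind. The 7 bases are the gap between the letters searched, not the spacing of that repeat. The RefSeq start of ABCC9 lies upstream of the gene's end in the deposited table, and ABCC6 has no position on a primary chromosome there.
ABCA1, chr9:104928156-104928405, minus strand: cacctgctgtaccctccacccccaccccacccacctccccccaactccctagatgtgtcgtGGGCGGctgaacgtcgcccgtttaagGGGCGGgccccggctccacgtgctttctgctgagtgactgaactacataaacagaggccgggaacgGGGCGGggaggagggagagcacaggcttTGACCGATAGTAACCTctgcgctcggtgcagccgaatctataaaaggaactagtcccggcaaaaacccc
ABCA7, chr19:1039857-1040106, plus strand: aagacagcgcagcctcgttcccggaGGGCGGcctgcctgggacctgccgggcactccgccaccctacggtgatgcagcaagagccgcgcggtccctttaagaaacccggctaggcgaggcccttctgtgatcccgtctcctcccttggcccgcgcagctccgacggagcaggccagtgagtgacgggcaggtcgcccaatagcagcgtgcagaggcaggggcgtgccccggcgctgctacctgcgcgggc
ABCA13, chr7:48171208-48171457, plus strand: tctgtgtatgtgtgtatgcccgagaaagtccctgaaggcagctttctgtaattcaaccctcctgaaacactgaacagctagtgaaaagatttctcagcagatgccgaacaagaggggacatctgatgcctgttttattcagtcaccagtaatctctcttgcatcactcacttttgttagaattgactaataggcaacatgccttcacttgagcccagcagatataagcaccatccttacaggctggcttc
ABCC6, chr16:16223495-16223744, minus strand: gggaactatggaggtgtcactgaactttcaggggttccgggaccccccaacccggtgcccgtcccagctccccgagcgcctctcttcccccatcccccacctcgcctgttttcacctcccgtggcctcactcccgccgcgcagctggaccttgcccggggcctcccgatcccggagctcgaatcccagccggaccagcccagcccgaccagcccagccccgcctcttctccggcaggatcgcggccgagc
ABCC9, chr12:21941427-21941676, minus strand: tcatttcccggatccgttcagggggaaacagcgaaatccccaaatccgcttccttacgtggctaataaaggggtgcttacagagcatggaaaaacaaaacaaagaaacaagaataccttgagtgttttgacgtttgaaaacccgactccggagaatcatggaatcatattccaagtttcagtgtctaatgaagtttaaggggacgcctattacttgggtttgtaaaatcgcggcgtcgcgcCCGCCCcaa

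The base composition of these promoters, chosen after the values were seen, did not stand for that of all other members. Those of ABCA7 and ABCC6 held 70.4 and 70.8% G and C, those of ABCA13 and ABCC9 held 44.8 and 46.0%, and that of ABCA1 held 61.6%. The other members that were higher differed among each other. Several had promoters rich in G and C, with 80.4% in ABCC4, 79.2% in both ABCA3 and ABCA5, 74.4% in ABCD3, 69.6% in ABCF3 and 60.0% in ABCE1. The promoters of ABCC2 and ABCG2, which were also higher, went the other way. That of ABCC2 held 45.6% and that of ABCG2 less. The promoters of the other matched members that were lower ran from 58.0% in ABCC10 and ABCD4 to 75.6% in ABCB9. Both directions thus held promoters rich in G and C. A promoter entry was matched for 35 of the 45 members, with 1 entry used per member. The RefSeq promoters set beside them were counted entry by entry and outnumber the 19314 genes listed, so the sets are unlike. A GC box was in 18 of these 35, or 51.4%, beside 42.6% of all 35116 RefSeq promoters of that length. The letters TATAAA were in 5 members, or 14.3%, beside 10.7% of all. CCAAT was in 6, or 17.1%, beside 32.0%, and CACGTG was in 4, or 11.4%, beside 6.34%. The pattern of TGACC and ACCT, whose letters were chosen after the ABCA1 sequence was seen, was in 1 member promoter, that of ABCA1. It was in 0.211% of all promoters, a share of these letters and not of the receptor element. All motifs were searched on both strands, and a match is a match of letters.

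Genes of sterol efflux and of the liver X receptor system were read from a list of 16. Of these, 2 were higher, 11 were lower and 3 did not pass, with a median log2 fold change of -0.51. Among all genes 57.9% passed, 30.8% higher and 27.1% lower, and 74.6% of those with a mean of at least 1 FPKM passed. The transcripts of SREBF1, RXRA, RXRB, SREBF2 and SCARB1 held 64.7, 63.2, 58.5, 57.9 and 56.7% G and C. Above 55%, 45.6% of all genes at that level were lower. Of other lower genes, MYLIP and NPC2 held 45.8 and 44.3%, and PLTP, which was higher, held 59.8%. The part of base composition in this list was not tested. SREBF1 and SREBF2, the master regulators of fatty acid and cholesterol synthesis, had log2 fold changes of -1.79 and -1.18. SCARB1, the high-density lipoprotein receptor, was at 6.09 and 6.59 FPKM against 26.10 and 24.92 FPKM in SCR (log2 fold change -1.85). MYLIP, a liver X receptor target that degrades the LDL receptor, was at 0.07 and 0.18 FPKM against 3.02 and 3.02 FPKM (log2 fold change -1.84).

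The receptors themselves differed among each other. NR1H3, which encodes liver X receptor alpha, was lower (log2 fold change -0.43, adjusted p = 0.0115), and its partners RXRA and RXRB had log2 fold changes of -0.83 and -1.13. NR1H2, which encodes liver X receptor beta, was at 57.74 and 57.69 FPKM against 56.63 and 54.77 FPKM (adjusted p = 0.277). NPC1, the late endosomal cholesterol exporter, and PLTP, the phospholipid transfer protein, were higher by 0.45 and 0.34 on the log2 scale. ABCG1, which moves cholesterol together with ABCA1 in macrophages, was at most 0.04 FPKM in each library.

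In subfamily B, ABCB6 and ABCB9 were lower, and so was ABCB8 before removal of the trend on G and C content. ABCB1, which encodes P-glycoprotein, was nearly silent, at 0.00 and 0.03 FPKM with knockdown and at 0.02 and 0.06 FPKM in SCR. The estimated reads were at most 5 per library, so a difference in ABCB1 was not detectable at this depth. ABCB4 and ABCB11, the phospholipid and bile salt transporters of hepatocytes, were likewise near 0. ABCB5 was at 0.51 and 0.75 FPKM against 0.52 and 0.72 FPKM, with overlapping groups.

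The dimeric transporters of subfamily B carried its expression. ABCB6, known for porphyrin transport, was at 4.13 and 4.01 FPKM with knockdown and at 8.56 and 7.50 FPKM in SCR (log2 fold change -0.83, SE 0.07, adjusted p = 0.00184). ABCB9, the lysosomal peptide transporter, was at 2.03 and 2.41 FPKM against 4.71 and 4.82 FPKM (log2 fold change -0.84, SE 0.07, adjusted p = 0.00178). In both genes the knockdown libraries lay below the SCR libraries. The adjusted p of ABCB6 was 0.0539 and 0.0565 without either knockdown library, and that of ABCB9 was 0.0591 and 0.0607 without either SCR library. ABCB6 lies on chromosome 2 from 219209766 to 219218990, with 70632 bases between it and PTPRN.

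In the mitochondrial inner membrane transporters ABCB8 and ABCB10 the changes were small. ABCB8, a part of a mitochondrial potassium channel complex, was at 9.23 and 9.20 FPKM against 11.63 and 11.22 FPKM (log2 fold change -0.28, SE 0.03, adjusted p = 0.00426), and its direction turned to 0.06 (adjusted p = 0.21) once the trends of all genes on G and C content and length were removed. ABCB10, linked to heme synthesis and with 3 pseudogene copies, was at 5.42 and 5.50 FPKM against 5.87 and 6.45 FPKM (log2 fold change -0.15, SE 0.05, adjusted p = 0.0808). Of the listed genes of mitochondrial iron-sulfur and heme synthesis, 8 of 18 were higher, 6 were lower and 4 did not pass, a share near the 74.6% of all genes with a mean of at least 1 FPKM. HSPA9, the mitochondrial chaperone, and ALAS1, the first enzyme of heme synthesis, had log2 fold changes of 1.20 and 1.03, and TMEM14C, a porphyrinogen carrier, one of -0.76. The adjusted p of ABCB8 was 0.0516 and 0.0525 without either knockdown library, and that of ABCB10 was 0.0406 without SCR 1.

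The peptide transporters of antigen processing belong to the same subfamily under other symbols and were no members. TAP1 was at 24.14 and 24.85 FPKM with knockdown against 28.89 and 27.77 FPKM (log2 fold change -0.20, adjusted p = 0.0152), and TAP2 was at 13.82 and 15.93 FPKM against 16.91 and 15.64 FPKM (adjusted p = 0.301).

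Subfamily C had the largest number of well expressed members, 8 of 10 tested, and held both the largest fall and the largest rise of the family on the log2(FPKM + 1) scale. With a pseudocount of 0.1, where ABCC9 had a log2 fold change of 0.98, ABCA13, ABCA3 and ABCA4 rose more, by 1.15, 2.03 and 1.99. In subfamily C 3 members were higher, 5 were lower and 2, ABCC11 and ABCC12, did not pass. The share that passed was 80.0%, beside 57.9% of all genes tested. All 8 with a mean of at least 1 FPKM passed, beside 74.6% of all genes at that level. Along with ABCC3 described above (chromosome 17, 50634857 to 50691702), the falls were of ABCC6, ABCC10, ABCC1 and ABCC5. ABCC6, whose loss causes pseudoxanthoma elasticum, was at 2.22 and 1.86 FPKM against 5.58 and 5.94 FPKM in SCR. The SCR mean was 2.82 times the knockdown mean, and reads of ABCC6 may be shared with its pseudogene copies ABCC6P1 and ABCC6P2. ABCC10, the exporter MRP7, was at 2.09 and 2.15 FPKM against 4.62 and 4.47 FPKM (log2 fold change -0.83, SE 0.03, adjusted p = 0.000462).

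ABCC1 and ABCC5 fell by less. ABCC1, the glutathione-conjugate and drug exporter MRP1, was at 9.47 and 9.20 FPKM with knockdown and at 12.71 and 12.63 FPKM in SCR (log2 fold change -0.40, SE 0.03, adjusted p = 0.00155). ABCC5, the cyclic nucleotide exporter MRP5, was at 4.71 and 4.45 FPKM against 5.64 and 5.54 FPKM (log2 fold change -0.24, SE 0.04, adjusted p = 0.00985). Both groups were apart in each of these genes. An antisense gene, ABCC5-AS1, is annotated at ABCC5, and whether strand was used in counting is not given in the sources used here. The adjusted p of ABCC5 was 0.0963 and 0.0854 without SCR 1 or SCR 2.

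ABCC9 showed the opposite course. This gene (chromosome 12, 21797389 to 21936694) encodes SUR2, the sulfonylurea receptor that forms ATP-sensitive potassium channels with the pore subunits of KCNJ8 or KCNJ11. It was at 13.23 and 13.37 FPKM with knockdown and at 6.63 and 6.78 FPKM in SCR, a ratio of 1.98 (log2 fold change 0.89, SE 0.03, adjusted p = 0.000379). The pore genes were low in each library. KCNJ8 was at 0.26 and 0.33 FPKM against 0.81 and 0.52 FPKM (log2 fold change -0.36, adjusted p = 0.0468), and KCNJ11 was at 0.38 and 0.44 FPKM against 0.27 and 0.16 FPKM (log2 fold change 0.22, adjusted p = 0.045).

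ABCC2 and ABCC4 were the other genes of subfamily C that were higher. ABCC2, the canalicular conjugate exporter MRP2, was at 5.27 and 5.73 FPKM against 3.89 and 3.62 FPKM (log2 fold change 0.45, SE 0.06, adjusted p = 0.00493). ABCC4, the cyclic nucleotide and prostaglandin exporter MRP4, was at 7.14 and 7.58 FPKM against 5.87 and 6.51 FPKM (log2 fold change 0.22, SE 0.06, adjusted p = 0.0467). The call of ABCC4 was lost without each of the 4 libraries in turn, at adjusted p-values of 0.0848 to 0.25. That of ABCC2 was lost without knockdown 2, SCR 1 or SCR 2, at 0.058, 0.063 and 0.0764. CFTR, the chloride channel of subfamily C under another symbol, was at most 0.01 FPKM.

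The 3 efflux genes best known for drug resistance had different courses. ABCC1 was lower, ABCB1 was near 0 in both groups, and ABCG2, the breast cancer resistance protein, was at 1.39 and 1.38 FPKM with knockdown and at 1.16 and 1.06 FPKM in SCR (log2 fold change 0.18, SE 0.04, adjusted p = 0.022). The adjusted p of ABCG2 was 0.13 and 0.124 without either knockdown library. Among the listed xenobiotic receptor and drug resistance regulators, 12 of 13 were tested, and 4 were higher, 2 were lower and 6 did not pass. Of all genes tested 57.9% passed, and of those with a mean of at least 1 FPKM 74.6% did. TXNRD1 and GCLM, antioxidant genes of the NRF2 pathway, had log2 fold changes of 1.65 and 0.74, while NQO1, another gene of that pathway, had -0.45. NFE2L2, which encodes NRF2 itself, was at 36.33 and 36.48 FPKM against 34.97 and 34.57 FPKM (adjusted p = 0.138). HIF1A, the oxygen-regulated factor, was at 156.11 and 156.83 FPKM against 391.68 and 406.02 FPKM (log2 fold change -1.34).

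In subfamily D, which serves peroxisomes and lysosomes, ABCD3 was higher and ABCD4 was lower. ABCD3, the peroxisomal transporter of branched-chain and bile acid intermediates, was at 15.42 and 14.02 FPKM against 10.21 and 10.52 FPKM (log2 fold change 0.47, SE 0.06, adjusted p = 0.00473). Its adjusted p was 0.0902 and 0.0806 without SCR 1 or SCR 2.

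ABCD2, a peroxisomal fatty acid transporter, was at most 0.06 FPKM in each library. ABCD4, the lysosomal transporter of vitamin B12, was at 5.87 and 5.73 FPKM against 7.85 and 7.71 FPKM (log2 fold change -0.37, SE 0.03, adjusted p = 0.00188). Of the 17 listed genes of peroxisome import and biogenesis, 3 were higher, 7 were lower and 7 did not pass, with a median log2 fold change of -0.11, where 74.6% of all genes with a mean of at least 1 FPKM passed. PEX6, an ATPase that recycles the import receptor, was the 1 gene of them past the stricter thresholds, at 1.35 and 1.47 FPKM against 4.29 and 3.95 FPKM (log2 fold change -1.09). The transcript of PEX6 held 61.8% G and C.

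The genes without membrane domains were the highest expressed members of the family. ABCE1, which splits ribosomes into subunits after termination, was at 34.33 and 35.66 FPKM with knockdown and at 21.50 and 22.06 FPKM in SCR (log2 fold change 0.66, SE 0.04, adjusted p = 0.00077). ABCF2 was at 63.77 and 62.26 FPKM against 39.26 and 40.34 FPKM (log2 fold change 0.65, SE 0.03, adjusted p = 0.00069). ABCF1, which binds the initiation factor eIF2, went the other way, at 30.62 and 31.75 FPKM against 48.39 and 46.85 FPKM (log2 fold change -0.60, SE 0.04, adjusted p = 0.000992). RefSeq lists 2 pseudogene copies each of ABCE1 and ABCF2, with which reads may be shared. In the SCR libraries ABCF1 was the highest of the 3 ABCF genes and ABCF3 the lowest, and with knockdown ABCF2 was the highest while ABCF1 and ABCF3 lay close to each other.

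ABCF3 was at 32.18 and 33.92 FPKM with knockdown and at 28.15 and 27.06 FPKM in SCR (log2 fold change 0.25, SE 0.04, adjusted p = 0.0128). Without each library in turn its adjusted p was 0.0571 to 0.108. The listed partners of these proteins in ribosome recycling and translation held 13 genes, 8 of which were higher and 2 lower, with 3 that did not pass and a median log2 fold change of 0.25. The 10 that passed are a share near the 74.6% of all genes with a mean of at least 1 FPKM. ETF1, the release factor eRF1, was at 119.27 and 117.69 FPKM against 49.44 and 51.91 FPKM (log2 fold change 1.21). PELO, which works with ABCE1 on stalled ribosomes, EIF3J and the eIF2 subunit genes EIF2S1 and EIF2S2 had log2 fold changes of 0.57, 0.61, 0.70 and 0.77. The gene of the third eIF2 subunit, EIF2S3, had 0.04 (adjusted p = 0.548), and the recycling factor gene EIF2D fell with -0.21. GSPT1, the partner of ETF1, was at 52.42 and 53.37 FPKM against 54.03 and 56.35 FPKM (adjusted p = 0.251).

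In subfamily G, ABCG2 was the 1 member that passed. ABCG1 and ABCG4, sterol transporters of macrophages and brain, were at most 0.04 FPKM. ABCG5 and ABCG8, the partners in the sterol exporter of liver and intestine, whose genes lie 144 bases apart, had no value.

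Members near each other on a chromosome were also compared. ABCB8 and ABCF2, with 160054 bases between them on chromosome 7, had log2 fold changes of -0.28 and 0.65. ABCC5 and ABCF3, with 168114 bases between them on chromosome 3, had -0.24 and 0.25. The other close pairs, ABCB1 with ABCB4 and ABCC11 with ABCC12, were near 0 in each library.

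The direction of change ran with the base composition of the transcripts. Over the 25 members with a mean of at least 1 FPKM, the log2 fold change and the G and C content of the longest coding transcript had a Spearman correlation of -0.81 and a Pearson correlation of -0.73. Over all 11230 genes at that level with a transcript, these were -0.23 and -0.21. Both are descriptions across genes that share the same 4 libraries. The 8 members with at most 45% G and C were all higher, with a median log2 fold change of 0.46, beside 0.18 over the 4215 genes of that range, of which 50.3% were higher and 23.1% lower. Of the 7 members from 45 to 55%, 1 was higher, 5 were lower and 1 did not pass, with a median of -0.37 beside 0.06 over 3665 genes, of which 40.9% were higher and 34.5% lower. Of the 10 members above 55%, 1, ABCF3, was higher and 9 were lower, with a median of -0.85 beside -0.12 over 3350 genes, of which 29.9% were higher and 45.6% lower.

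After the trends of all genes on G and C content and length had been removed, the members' correlation was -0.71 by Spearman and -0.57 by Pearson. Their medians in these ranges were then 0.36, -0.20 and -0.51. ABCC3 stood at -1.94 and ABCC9 and ABCA13 at 0.84 each. ABCA2 moved from -0.85 to -0.38 and ABCA7 from -0.97 to -0.51, with adjusted p-values of 0.00134 and 0.00034. ABCB8 turned from -0.28 to 0.06 (adjusted p = 0.21). ABCC5 and ABCG2 no longer passed, at -0.09 and 0.09, and ABCC1 fell in size to -0.13 (adjusted p = 0.0307). The part of base composition in the changes was not tested further.

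**Figure D4:**
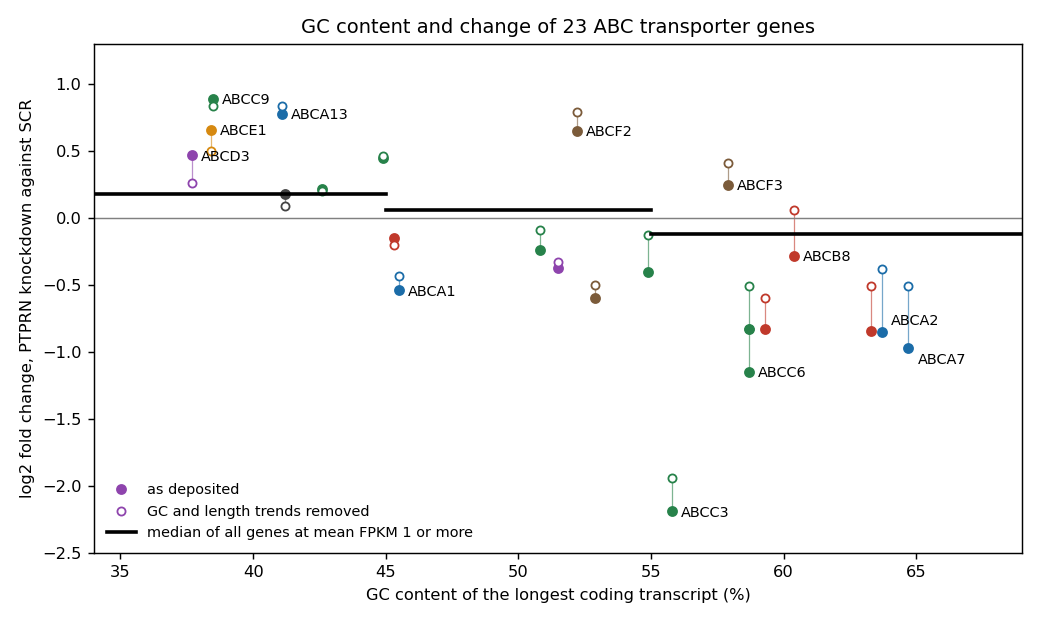
Log2 fold change of 23 members with a mean of at least 1 FPKM against the G and C content of the longest coding transcript. Filled points are the values as deposited, open points those after removal of the trends of all genes on G and C content and length, and colours are subfamilies. Black lines are the medians of all genes in 3 ranges, and the members lie above them at low and below them at high G and C content, apart from ABCF2, ABCF3 and a few near the lines.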

How the data were processed

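RNA of 4 libraries was sequenced as single-end reads of 50 bases. The authors deposited FPKM values per gene and library in 2 tables, in which none of 66380 values differed. Columns with the authors' own comparisons (log2 fold changes, p-values, q-values and false discovery rates) were present and left unused. The submitters' processing notes name HISAT2 2.1.0 and hg19, but gene positions in the table are those of GRCh38 (96.7% of 19257 matched genes). The counting program and the use of strand are not given in the sources used here.

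No counts were given, so limma 3.58.1 (R 4.3.3) was fitted to log2(FPKM + 1) of the 16595 genes with a value above 0, with group as the only term, default eBayes and Benjamini-Hochberg adjustment over all genes. Fold changes on this scale understate low genes. The fit had 3.72 degrees of freedom and was tested on simulated data. Depth was estimated from the steps of low FPKM values in short genes with 1 transcript; 89.5 to 91.6% of the genes used came within 0.2 of whole reads.

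Members and lists were chosen with earlier results of these data known. Values per library were given for members past the stricter thresholds, the 2 highest of each subfamily, pairs that work together and ABCB1, ABCC1 and ABCG2; values of 2 members are counted but not reported here, and other members and list genes were named after their values were seen. Alternatives comprised a pseudocount of 0.1, a floor of 1 FPKM, a replicate block, quantile normalization, an eBayes trend and leaving out each library. Median-ratio scaling, a pseudocount of 0.1 with a trend, a mean of at least 1 FPKM and removal of trends on G and C content and length were added after seeing the data. Myeloid, epithelial and CDKN2A locus marker lists were also read: CD68 was the 1 myeloid marker above 4 FPKM and was higher with knockdown (log2 fold change 0.59) while CD14 and CSF1R were lower (-0.52 and -0.43), epithelial markers reached 6.34 FPKM with KRT8 and KRT18 lower (-1.26 and -1.36), and CDKN2A and MTAP 0.34 FPKM. Transcript composition came from GENCODE 29, pseudogenes and promoters from RefSeq.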

Additional observations from a re-analysis of the deposited data

How the results depend on the processing

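The count of members past the stricter thresholds was 1 (ABCC3). It was 2 with genes reaching 1 FPKM in 2 libraries or more, with an eBayes trend, with quantile normalization and with a mean of at least 1 FPKM (ABCC3 and ABCC6 each time), 2 with a pseudocount of 0.1 and a trend (ABCC3 among them) and 4 with median-ratio scaling (ABCA7, ABCC3 and ABCC6 among them). It was 0 with a pseudocount of 0.1 and with the replicate block, and ranged from 0 to 0 without each library in turn. In these fits by limma the count over all genes was likewise 0, against 1111, while 10185, 10108 and 8700 to 8790 genes had an unadjusted p under 0.05, and 25 members still passed 0.05 with that pseudocount and 25 with the block. Without each library in turn, 18 to 21 members passed 0.05, against 27, and 37 to 39 of the 81 list genes tested did, against 56. The lone library of a group is then assumed to vary like the others. The median log2 fold change of the members moved from 0.00 to -0.28 under both minimum levels and to -0.13 with the trends on G and C content and length removed, where 25 members are left. ABCB8 reversed to 0.06 there. Library numbers were shared between the groups, and the labels do not say whether they pair the libraries. The deviations of same-numbered libraries had a correlation of 0.0635 over 11272 genes, which cannot settle whether they were handled together. Over the settings and the single members followed in them, 330 comparisons kept their direction and side of 0.05, 49 lost and 5 gained significance and 1 reversed. Not followed were ABCA6, ABCA8, ABCA9, ABCA10, ABCA12, ABCB4, ABCB5, ABCB11, ABCC11, ABCC12 and ABCG4, all under 1 FPKM in each library. Depth limits the 17 members under 1 FPKM, and 2 libraries per group limit all p-values.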
